A study of Mus musculus with 7 samples.

Results

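The genes described here encode RNA-binding proteins that set the splicing, stability, transport and translation of messenger RNA in the developing cortex. They were taken from a list of 44 genes of 16 families, and a gene was kept where its mean over the libraries was at least 10 normalized counts, that is, read counts divided by the size factor of each library. This left 42 of the 25239 genes in the authors' deposited table. Cpeb1, at a mean of 6.46, and Lin28a, at a mean of 1.28, lay below the minimum, and Lin28b, at 34.8, was the lowest gene above it. The C57BL/6J embryos, labelled wildtype, had received Breasi-CRISPR by in utero electroporation at E13.5, either to insert Ccnd2 Thr280Ala (3 brains) or as a silent control (4 brains). What the silent control changes is not stated in the labels. Polyadenylated RNA came from the transfected part of the cortex at E15.5, 2 days later. The 7 brains came from 3 litters, of which litter 1 held 1 edited and 2 control brains and litters 2 and 3 held 1 of each. In utero electroporation reaches cells that line the ventricle, so a sample can hold unedited cells, and the edited share was not analysed here. The authors' deposited table gives each gene a mean over the 7 libraries, a log2 fold change, the standard error (SE) of that change, and p-values. It holds no value per brain, so levels in single brains and the overlap of the groups cannot be shown. A log2 fold change above 0 means more transcript in the edited group. Depth, estimated from genes with a single read, ran from 19400000 to 32800000 reads per library. Markers of deep-layer and upper-layer cortical neurons, 8 of each, were all detected, with median means of 4096 and 5599 normalized counts. Markers of microglia, endothelium, meninges and choroid plexus were detected too, with median means of 299.0, 731.1, 334.9 and 75.4 normalized counts.

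Cortical progenitors and neurons splice and translate many transcripts differently, and RNA-binding proteins carry much of that switch. In progenitors PTBP1 keeps neuronal exons out of messenger RNA, Musashi proteins repress the translation of differentiation factors, and LIN28 proteins block the maturation of let-7 microRNAs. As neurons form, PTBP1 gives way to PTBP2, and the NOVA, RBFOX, ELAVL and CELF families shape the exons and the stability of transcripts used in axons and synapses.

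Transcripts of both kinds of regulator were abundant in this tissue. Per kilobase (kb) of exon, the highest level belonged to Khdrbs1, which encodes the splicing factor Sam68, with a mean of 3741 normalized counts per kb. Elavl3, a neuronal stabilizer of messenger RNA, followed at 2620 normalized counts per kb. The splicing regulators Rbfox2 and Celf2 were next, at 2393 and 2369 normalized counts per kb. Of the progenitor regulators, Msi1 ranked 6 at 1884 and Ptbp1 ranked 12 at 1408 normalized counts per kb, and Ptbp2, the neuronal counterpart of Ptbp1, stood between them at 1673. Lin28b was the least abundant member at 6.44 normalized counts per kb, and the muscleblind gene Mbnl3 was next at 18.6. Within families levels differed widely, with Nova2 at 971.5 and Nova1 at 73.6 normalized counts per kb, and Celf2 at 2369 and Celf6 at 108. These levels are means over all 7 libraries without a spread, so the order of neighbours was not tested.

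**Figure D1:**
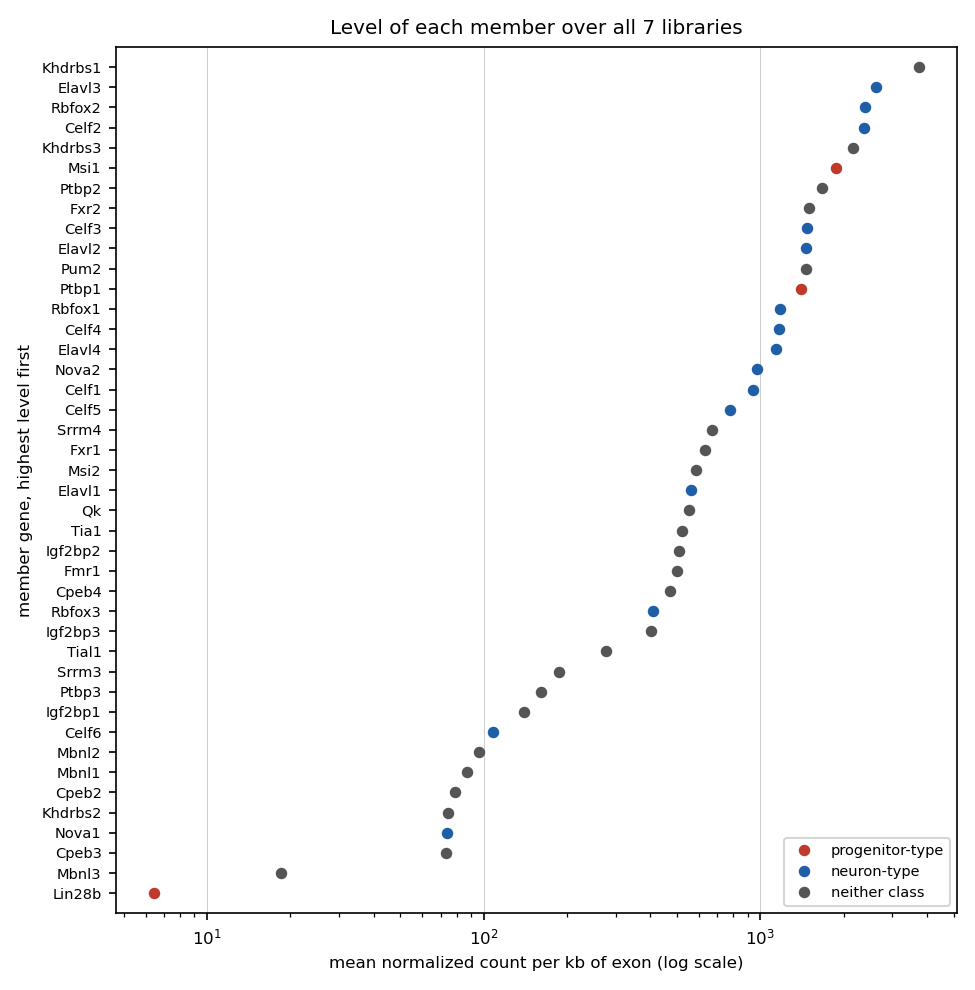
Mean normalized count per kb of exon (log axis) of each of the 42 members, 1 point per gene over all 7 libraries, coloured by class. Levels run from 6.44 for Lin28b to 3741 for Khdrbs1, and both progenitor-type and neuron-type genes lie among the 12 highest.

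No member passed the test between edited and control brains. At an adjusted p below 0.05 (the authors' DESeq2 Wald test, Benjamini-Hochberg adjustment over 14638 genes) 0 of 42 members were called, where 0.246% of all tested genes were. An unadjusted DESeq2 p below 0.05 was reached by 7 members, or 16.7%, against 5.86% of all tested genes. Of these 7, Elavl2, Elavl1, Qk, Ptbp1 and Khdrbs1 lay above 0, and Celf4 and Celf6 lay below. The share above 0 with such a p was 11.9% of the members against 2.20% of all tested genes, and the share below was 4.76% against 3.66%. Of the 42 members 24 had a log2 fold change above 0, or 57.1%, where 48.0% of all tested genes did. The members were more abundant than most genes, with a median of 3607 normalized counts against 592 over all tested genes. Among tested genes with a mean of at least 1000, 60.1% lay above 0 and 7.01% had an unadjusted DESeq2 p below 0.05. Of the 32 members at that level, 21 (65.6%) lay above 0 and 6 (18.8%) had such a p. By direction, 15.6% of these members had such a p above 0 and 3.1% below. The shares of tested genes at that level were 4.31% and 2.7%. The median log2 fold change was 0.043 over the members and -0.0064 over all tested genes. In RNA of whole tissue, fewer cells of a type and less RNA per cell cannot be told apart.

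**Figure D2:**
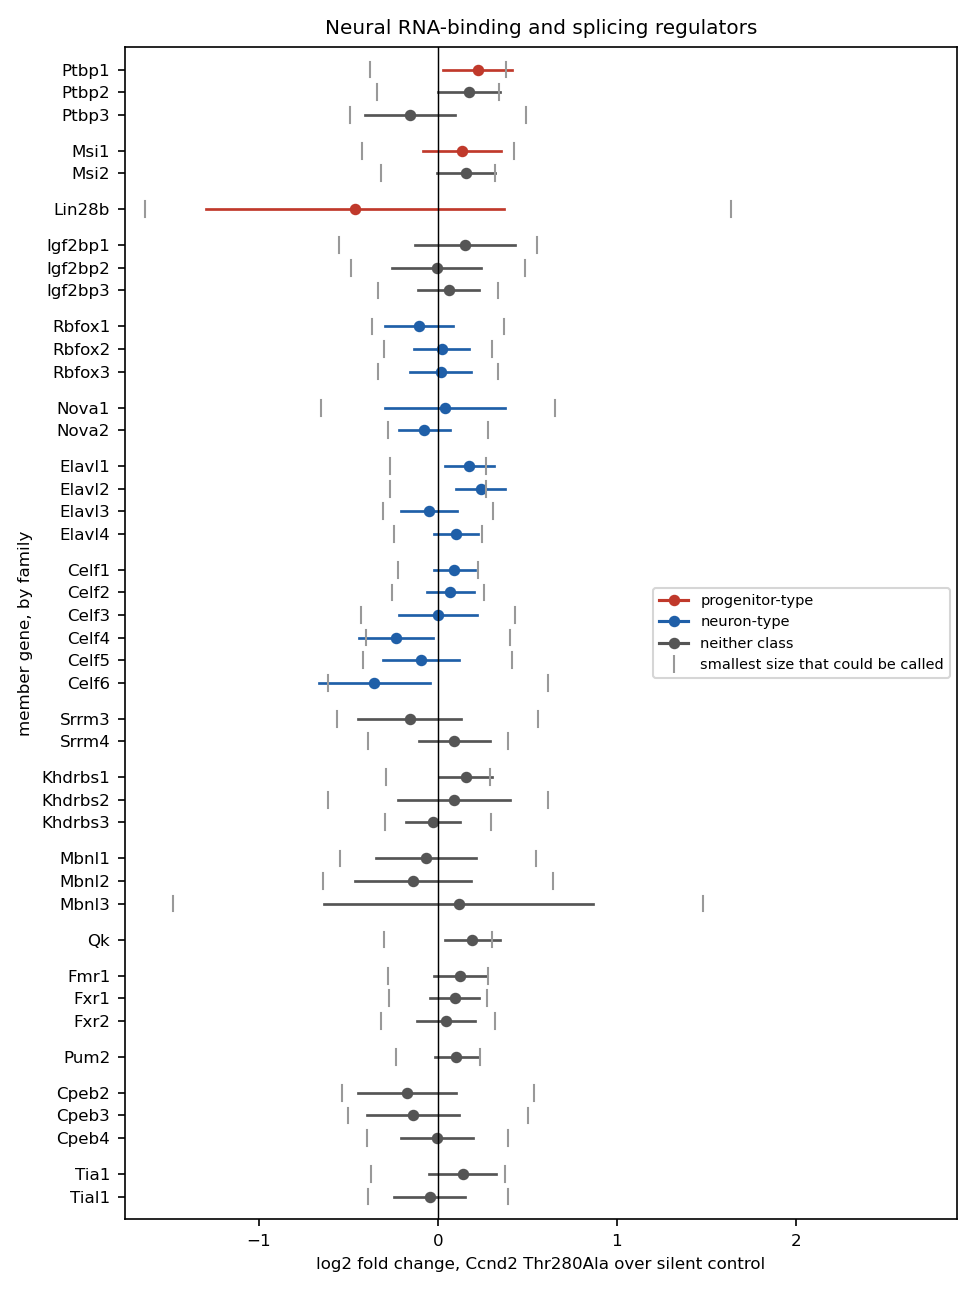
Log2 fold change of each member (points) with its 95% interval (lines), grouped by family and coloured by class. Grey ticks mark the smallest size at which the gene could have been called given its SE, and no point lies beyond its ticks.

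The progenitor-type regulators were Ptbp1, Msi1, Lin28a and Lin28b, of which 3 passed the minimum. Ptbp1 encodes the polypyrimidine tract-binding repressor of neuronal exons. The authors' deposited table put it at a log2 fold change of 0.22 (SE 0.099, unadjusted p = 0.0252, adjusted p = 0.695) from a mean of 4857 normalized counts, with a 95% interval from 0.028 to 0.42. Ptbp1 lies on chromosome 10 (79854427 to 79864771 in GRCm38, plus strand), and annotated genes on the opposite strand cover 26.4% of its exonic length. Gm17134, which has no deposited values, covers 12.7%, and E130317F20Rik, with a mean of 241.8, covers 8.55%. Plppr3 covers 5.16%, with a mean of 4964 and a log2 fold change of 2.32e-04 (SE 0.10) by the authors' deposited table. The sources do not state whether reads were counted by strand, so reads of such pairs may have been mixed.

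Msi1, the Musashi repressor of translation in neural stem cells, had a mean of 5904 normalized counts. Its log2 fold change was 0.13 (SE 0.11, unadjusted p = 0.228, adjusted p = 0.999) by the authors' deposited table. For Lin28b the authors' deposited table gave -0.46 (SE 0.43, unadjusted p = 0.276, adjusted p = 0.999), with an interval from -1.30 to 0.37. For Lin28a, below the minimum, the authors' deposited table gave -1.40 (SE 3.18), an interval that spans both directions widely. Both abundant progenitor-type genes thus lay above 0 and both sparse ones below, and the interval of Ptbp1 was the one of the 4 that did not include 0.

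The PTBP family has a well-known switch, and its exon is shown because Ptbp1 and Ptbp2 lay on the same side of 0. PTBP1 protein causes a 34-base coding exon of Ptbp2 messenger RNA to be skipped, and it acts in the same way on its own transcript. A length of 34 leaves a remainder of 1 on division by 3, so skipping shifts the reading frame and exposes the transcript to nonsense-mediated decay. The exons are printed 5′ to 3′ as annotated in GENCODE M21 (GRCm38), with capitals where Ptbp2 or Ptbp3 differs from Ptbp1.
Ptbp1, chr10:79862014-79862047, plus strand: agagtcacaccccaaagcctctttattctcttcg
Ptbp2, chr3:119724612-119724645, minus strand: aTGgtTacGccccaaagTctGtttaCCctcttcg
Ptbp3, chr4:59485339-59485372, minus strand: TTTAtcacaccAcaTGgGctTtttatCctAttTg
The Ptbp2 exon has the base of Ptbp1 at 26 of 34 positions and the Ptbp3 exon at 22. GENCODE M21 lists 2 transcripts of Ptbp1 that skip the exon, both as nonsense-mediated decay. It lists 3 such transcripts of Ptbp2, of which 2 carry that label, and 0 of Ptbp3.

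Ptbp2, the form that takes over in young neurons, was placed at 0.17 (SE 0.089, unadjusted p = 0.0510, adjusted p = 0.858) by the authors' deposited table, with an interval from -7.68e-04 to 0.35. Ptbp3, a more broadly expressed form, was placed at -0.15 (SE 0.13, unadjusted p = 0.227) by the same deposited table, with an interval from -0.41 to 0.096. The values are counts per gene, so forms with and without these exons were not measured.

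LIN28 proteins and let-7 repress each other, and the let-7 sequences are shown because Lin28b had the lowest log2 fold change of the 42 members. The mature forms below, from RefSeq (GRCm38.p6), share 1 seed, bases 2 to 8, printed in capitals.
mmu-let-7a-5p: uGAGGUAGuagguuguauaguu
mmu-let-7b-5p: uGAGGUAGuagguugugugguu
mmu-let-7g-5p: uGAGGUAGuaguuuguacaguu
mmu-let-7i-5p: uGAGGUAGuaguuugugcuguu
The 3′ UTR of Lin28b in GENCODE M21 is 4445 bases long and holds 4 matches to this seed, searched on the transcript's own strand as CTACCTC. The matches start at bases 36, 2410, 2582 and 3998 of the UTR and are in capitals below, all on the minus strand.
Lin28b, chr10:45381018-45381039: ggcgggaagtCTACCTCatgca
Lin28b, chr10:45378644-45378665: ttgttagtaaCTACCTCtgagt
Lin28b, chr10:45378472-45378493: cagcacatggCTACCTCccagc
Lin28b, chr10:45377056-45377077: atggcaccgaCTACCTCttcaa
Of 1345 3′ UTRs of other genes of similar length, 24.0% held at least 1 match and 0.223% held 4 or more. A match describes the sequence, and microRNAs were not measured. Hmga2, another textbook target of let-7, was given -0.29 (SE 0.23, unadjusted p = 0.209, adjusted p = 0.999) by the authors' deposited table, so the intervals of both Lin28b and Hmga2 include 0.

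The neuron-type regulators comprised 15 genes, all of which passed the minimum. They were split around 0, with 8 genes (53.3%) above and 7 below. Of all tested genes 48.0% lay above 0, and of those with a mean of at least 1000, 60.1%. Their median log2 fold change was 0.015, and they ranged from -0.35 for Celf6 to 0.24 for Elavl2. An unadjusted DESeq2 p below 0.05 was reached by 4 of them (26.7%), Elavl1 and Elavl2 above 0 and Celf4 and Celf6 below. The share was 5.86% over all tested genes and 7.01% over those with a mean of at least 1000.

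ELAVL proteins bind AU-rich elements and stabilize messenger RNA. Elavl2, which encodes the neuronal protein HuB (chromosome 4, 91250763 to 91400785, minus strand), had the smallest p of all members and a mean of 6986 normalized counts. The authors' deposited table put its log2 fold change at 0.24 (SE 0.069, unadjusted p = 5.94e-04, adjusted p = 0.124), or 18.0% more transcript, with an interval from 0.10 to 0.37. Its p ranked 70 among all tested genes, and a log2 fold change of 0.27 would have been called at its SE. Elavl1, the broadly expressed HuR gene with a mean of 3255, was given 0.18 (SE 0.069, unadjusted p = 0.0115, adjusted p = 0.533) by the authors' deposited table. Elavl4, the neuronal HuD gene with a mean of 5427, was given 0.10 (SE 0.063, unadjusted p = 0.112, adjusted p = 0.948) by that deposited table. Elavl3, the neuronal HuC gene and the most abundant of the family with a mean of 18050, was given -0.048 (SE 0.080, unadjusted p = 0.545, adjusted p = 0.999) by that deposited table. The family thus had 3 of 4 genes above 0.

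CELF proteins bind GU-rich sequence and act on splicing and on the decay of messenger RNA. The widely expressed genes Celf1 and Celf2 lay above 0, with intervals that included 0. Celf1, with a mean of 7636 normalized counts, was at 0.092 (SE 0.058, unadjusted p = 0.111, adjusted p = 0.948) by the authors' deposited table. Celf2, with a mean of 23022, was at 0.069 (SE 0.066, unadjusted p = 0.294, adjusted p = 0.999) by that deposited table. The 4 genes known mainly from brain lay below 0, of which Celf3 and Celf5 also had intervals that included 0. Celf3, with a mean of 4783, was at -8.08e-04 (SE 0.11, unadjusted p = 0.994, adjusted p = 0.999) by the authors' deposited table. Celf5, with a mean of 4570, was at -0.094 (SE 0.11, unadjusted p = 0.384, adjusted p = 0.999) by that deposited table. The lower pair had intervals that did not include 0. Celf4, with a mean of 4890, was at -0.23 (SE 0.10, unadjusted p = 0.0244, adjusted p = 0.693) by the authors' deposited table. Celf6, with a mean of 345.7, was at -0.35 (SE 0.16, unadjusted p = 0.0257, adjusted p = 0.701) by that deposited table.

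The interval of every RBFOX and NOVA gene included 0. RBFOX proteins bind the sequence UGCAUG beside alternative exons, and Rbfox3 encodes the neuronal antigen NeuN. Rbfox1, with a mean of 4105 normalized counts, was at -0.11 (SE 0.096, unadjusted p = 0.269) by the authors' deposited table. Rbfox2, with a mean of 17305, was at 0.020 (SE 0.078, unadjusted p = 0.796), and Rbfox3, with a mean of 2019, was at 0.015 (SE 0.088, unadjusted p = 0.862) by that deposited table. NOVA proteins regulate exons of synaptic transcripts. Nova1, with a mean of 526.3, was at 0.040 (SE 0.17, unadjusted p = 0.815) by the authors' deposited table. Nova2, with a mean of 8134, was at -0.076 (SE 0.073, unadjusted p = 0.294) by that deposited table, and a gene on the opposite strand covers 31.7% of its exonic length. The adjusted DESeq2 p was 0.999 for each of these 5 genes, and their intervals lay between -0.29 and 0.37.

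**Figure D3:**
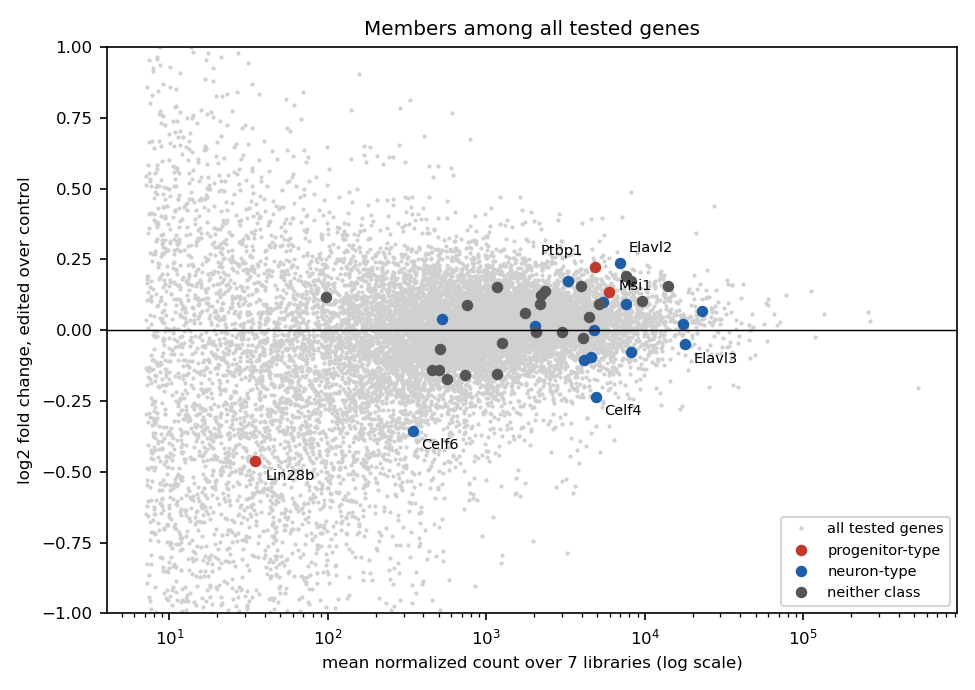
Log2 fold change (vertical axis) against mean normalized count (horizontal log axis) of the tested genes (grey) and the 42 members (coloured by class). The vertical axis ends at -1 and 1, beyond which 391 tested genes and no member lie, and Elavl2 and Ptbp1 are the highest members and Lin28b and Celf6 the lowest.

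Set side by side, the progenitor-type genes had a median log2 fold change of 0.13 (3 genes) and the neuron-type genes one of 0.015 (15 genes), a difference of 0.12. The classes overlapped, since Elavl2 lay above every progenitor-type gene and Lin28b below every neuron-type gene. The genes share the same 7 libraries, and the difference between the classes was not tested. Its sign turned where Lin28a, below the minimum at a mean of 1.28, was included beside Lin28b, and stayed the same without Lin28b. With Lin28a included the progenitor-type median was -0.16 and the difference -0.18, and without Lin28b they were 0.18 and 0.16. With Msi2 and the IGF2BP genes added to the progenitor-type class, and Rbfox2, Elavl1, Celf1 and Celf2 dropped from the neuron-type class, the medians were 0.13 over 7 genes and -0.048 over 11.

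Marker lists of the cell types are given beside these values, without a test of any list. Radial glia markers had 10 of 12 genes above 0 with a median log2 fold change of 0.20, intermediate progenitor markers 9 of 9 with a median of 0.20, and G2/M genes 12 of 12 with a median of 0.20. Neuronal maturation genes had 2 of 13 above 0 and a median of -0.14. The authors' test called 0 genes of these 4 lists, where 0.246% of all tested genes were called. An unadjusted DESeq2 p below 0.05 was reached by 5 radial glia genes (41.7%) and 4 intermediate progenitor genes (44.4%), all above 0. It was reached by 0 G2/M genes and by 4 neuronal maturation genes (30.8%), all below 0. That share was 5.86% over all tested genes. Over those with a mean of at least 1000 it was 7.01%, and 60.1% lay above 0. Deep-layer markers had 5 of 8 above 0 (median 0.066) and upper-layer markers 3 of 8 (median -0.065), with Rorb called at -0.58 (SE 0.11, adjusted p = 4.13e-04) by the authors' deposited table. Interneuron markers had 6 of 9 above 0 (median 0.019), with Npy called at -0.76 (SE 0.19, adjusted p = 0.0287) by that deposited table. Lists of less frequent cells lay mostly below 0, with 0 of 6 Cajal-Retzius genes above it (median -0.15), 0 of 10 microglia and macrophage genes (median -0.64), 0 of 8 endothelial genes (median -0.32), 2 of 8 meningeal genes (median -0.78), 1 of 5 oligodendrocyte precursor genes (median -0.29) and 1 of 3 erythroid genes (median -0.23). Of the haemoglobin genes of the erythroid list, Hba-a1, Hba-a2, Hbb-bs and Hbb-bt are listed at 0, and Hbb-y had a mean of 519.8 normalized counts and a log2 fold change of 0.010 (SE 0.25) by the authors' deposited table. Choroid plexus and hem genes had 7 of 7 above 0 with a median of 2.92 and 0 called. That median is the value of Kcne2 (SE 3.63) in the authors' deposited table, and the median SE of the list was 1.58. The median SE of the meningeal list was 1.17. The part of the listed cell types in the values of the regulators was not tested.

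**Figure D4:**
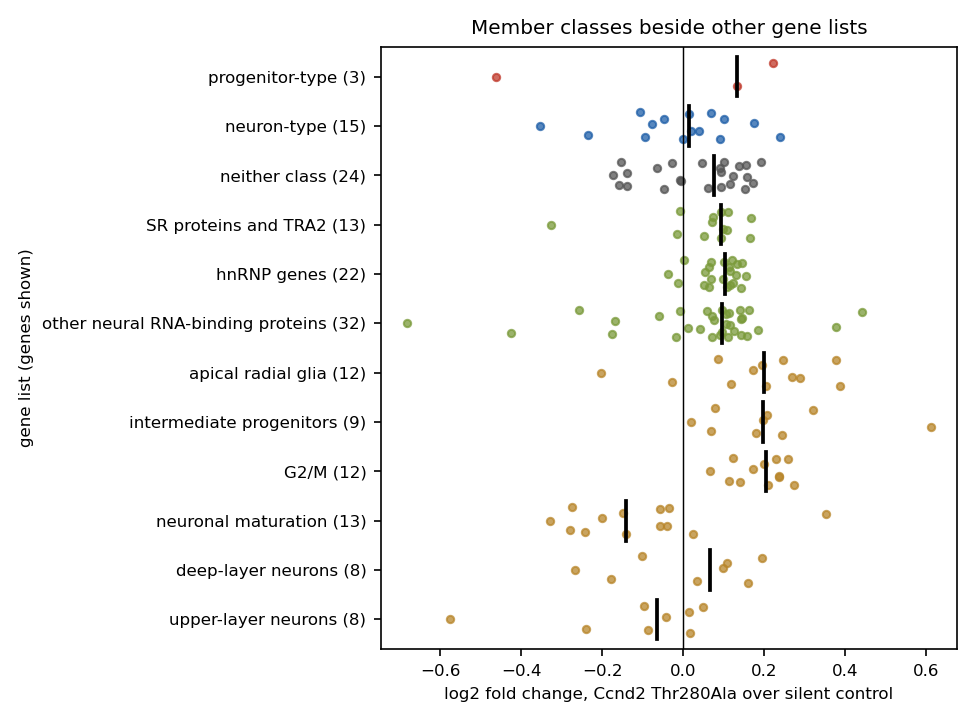
Log2 fold changes (points, 1 per gene) and medians (black bars) of the member classes, of other RNA-binding protein lists and of cortical cell markers, with the number of genes in brackets. Medians of the progenitor-type class and of the 3 other RNA-binding protein lists lie between 0.093 and 0.13, those of radial glia, intermediate progenitor and G2/M genes at 0.20, and that of neuronal maturation genes at -0.14.

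The other 24 members had a median log2 fold change of 0.076, with 14 above 0 and a range from -0.17 to 0.19. Among the splicing regulators, Qk encodes the KH-domain protein Quaking and had a mean of 7610 normalized counts. The authors' deposited table put Qk at 0.19 (SE 0.079, unadjusted p = 0.0148, adjusted p = 0.583). Khdrbs1, with a mean of 13986, was at 0.16 (SE 0.075, unadjusted p = 0.0383, adjusted p = 0.797) by that deposited table. Its relatives Khdrbs2 and Khdrbs3, which act on neurexin exons, were at 0.090 (SE 0.16) and -0.028 (SE 0.077) by that deposited table. Srrm4, the activator of neuronal microexons, was at 0.092 (SE 0.10) and its relative Srrm3, which had the smaller p, at -0.16 (SE 0.15, unadjusted p = 0.279) by the authors' deposited table. The muscleblind genes, whose proteins favour splice forms of mature tissue, were at -0.065 (SE 0.14) for Mbnl1, -0.14 (SE 0.17, unadjusted p = 0.403) for Mbnl2 and 0.12 (SE 0.38) for Mbnl3 by that deposited table.

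Of the regulators of translation and transport, 0 were called and each interval included 0. Msi2, the other Musashi gene, was at 0.16 (SE 0.083, unadjusted p = 0.0574, adjusted p = 0.876) by the authors' deposited table, near Msi1 at 0.13. IGF2BP proteins bind and stabilize messenger RNAs in embryonic cells. Igf2bp1 was at 0.15 (SE 0.14, unadjusted p = 0.290), Igf2bp2 at -0.0076 (SE 0.13) and Igf2bp3 at 0.061 (SE 0.087) by that deposited table. For Igf2bp3, Malsu1 on the opposite strand covers 35.2% of the exonic length. The fragile X family, repressors of translation at synapses, lay above 0 with all 3 genes. Fmr1 was at 0.12 (SE 0.073, unadjusted p = 0.0920, adjusted p = 0.934), Fxr1 at 0.093 (SE 0.071) and Fxr2 at 0.046 (SE 0.083) by the authors' deposited table. Pum2, whose protein represses transcripts through their 3′ UTRs, was at 0.10 (SE 0.061, unadjusted p = 0.0975, adjusted p = 0.947) by that deposited table. CPEB proteins control cytoplasmic polyadenylation, and the 3 CPEB genes that passed the minimum lay below 0. Cpeb2 was at -0.17 (SE 0.14, unadjusted p = 0.212), Cpeb3 at -0.14 (SE 0.13) and Cpeb4 at -0.0059 (SE 0.10) by the authors' deposited table. Cpeb1, below the minimum, was at 0.63 (SE 0.99) by that deposited table. The stress granule genes Tia1 and Tial1 were at 0.14 (SE 0.097, unadjusted p = 0.155) and -0.047 (SE 0.10) by that deposited table.

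General RNA-binding genes outside these families lay mostly above 0. Of 22 hnRNP genes, whose proteins package nascent RNA, 20 lay above 0, with a median log2 fold change of 0.10. Of 13 genes of SR and TRA2 proteins, which activate exons, 10 lay above 0, with a median of 0.093. Of 35 other RNA-binding genes 32 passed the minimum, and 24 of those lay above 0, with a median of 0.096. The authors' test called 0 genes of these lists. An unadjusted DESeq2 p below 0.05 was reached by 1 hnRNP gene (4.5%), 2 SR genes (15.4%) and 7 of the others (21.9%), of which 1 lay below 0. The share was 16.7% of the members and 7.01% of tested genes with a mean of at least 1000. Of tested genes at that level 60.1% lay above 0. By p, Hnrnph2 came first of the hnRNP genes at 0.15 (SE 0.073), then Syncrip at 0.13 (SE 0.069) and Hnrnpf at 0.11 (SE 0.067), by the authors' deposited table. The SR genes of smallest p were Srsf1 at 0.17 (SE 0.065), Srsf10 at 0.17 (SE 0.082) and Srsf12 at -0.33 (SE 0.18) by that deposited table. Of the others, Tardbp, which encodes TDP-43, was at 0.18 (SE 0.067, unadjusted p = 0.00628, adjusted p = 0.428), Caprin1 at 0.14 (SE 0.057) and Rbm20 at 0.44 (SE 0.19) by that deposited table.

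Of 9 genes under textbook control of the members 3 lay above 0, with a median log2 fold change of -0.054, and 0 were called. Gap43, a growth-cone gene whose messenger RNA ELAVL4 protein stabilizes, is also 1 of the neuronal maturation genes. The authors' deposited table put Gap43 at -0.27 (SE 0.082, unadjusted p = 8.69e-04, adjusted p = 0.159). Map1b, whose translation FMRP represses, was at -0.088 (SE 0.077, unadjusted p = 0.253) by that deposited table. Added after their values were seen, Dlg4, which PTBP proteins hold down through exon skipping, was at -0.065 (SE 0.077) and Numb, which MSI1 represses in translation, at 0.089 (SE 0.15) by the authors' deposited table. Rest, whose splicing SRRM4 alters, was also added after its value was seen and was at -0.030 (SE 0.23) by that deposited table.

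The SE of each gene sets what could have been called. The largest p of a called gene was 1.17e-04, which corresponds to a difference of 3.85 SE. At their SE the members would have needed a log2 fold change of 0.22 (Celf1) to 1.64 (Lin28b), with a median of 0.38. The 95% interval of 39 of the 42 members lay inside a 1.5-fold difference in either direction, the exceptions being Celf6, Mbnl3 and Lin28b, and that of 41 lay inside 2-fold. Compared with other genes within 2-fold of their abundance, the members had a median SE ratio of 1.03. Msi1 had the highest ratio, 1.43, with Celf3 next at 1.41, and Celf1 had the lowest at 0.76.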

How the data were processed

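Per the submitters' processing notes, the authors used cutadapt, featureCounts and DESeq2 with the build mm10. Versions, settings, aligner and annotation: not given in the sources used here. Every value starts from 1 deposited comparison, whose name says that litter was included. The mean normalized count is a signal that the authors averaged over the libraries, per the file headers. The log2 fold change and SE are the authors', per the file headers. The Wald score is as deposited by the authors and matched fold change over SE within 1.23e-07. Unadjusted and adjusted p-values are as deposited by the authors. The adjusted one is given for 14638 of 18976 genes with a p-value. A refit was planned only for counts per library, so no model was refitted.

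Direction was settled from 694 genes with a single read in 1 library. They form 7 classes of equal values, 3 above 0 and 4 below, the numbers of edited and control brains. The same classes give size factors and hence estimated depths. The search stopped at 7 classes, the number of libraries. The recovery of size factors and the adjustment were tested on simulated data. The sign of each class was set in that simulation, which held no DESeq2 fit, so it could not test the direction.

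Members, classes and gene lists were chosen with earlier results of these data known. Full values are given for both classes, for other members with an unadjusted p below 0.05 and for the smallest p in each remaining family. Of other lists, called genes and the 3 of smallest p are named. Remaining members are named with shorter values. Intervals span 1.96 SE to each side. Exonic length is the union of exons of basic GENCODE M21 transcripts (GRCm38), and all members were matched. UTRs of similar length had 0.8 to 1.25 times that of Lin28b. The labels number brains within litters, so p-values cover spread between brains. Python 3.11.15, numpy 2.4.6, pandas 2.3.3, scipy 1.17.1 and matplotlib 3.10.9 were used.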

Additional observations from a re-analysis of the deposited data

How the results depend on the processing

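Of 34 alternative values, 32 moved by less than the median SE of their class or stayed within 1.5 times the count. The difference was judged by the median SE of the progenitor-type class, which is not an SE of the difference. Some values could not move, since centring shifts both classes alike and leaves the difference at 0.12. A mean of at least 100 and leaving out Lin28b gave the same progenitor-type genes. The tally is therefore no measure of how firm the results are. With no filter on low values the progenitor-type median turned to -0.16 and the difference between the class medians to -0.18, since Lin28a, at a mean of 1.28, then entered. Under the other alternatives the progenitor-type median was 0.11 to 0.18 and the difference 0.12 to 0.18, while the neuron-type median ran from -0.048 to 0.037, on both sides of 0. Members called by DESeq2 numbered 0 under 4 alternatives. With the adjustment run over all genes with a p-value, the lowest adjusted DESeq2 p of a member was 0.161. The filters on the mean could not change the count of 0 members called. A higher minimum only removes members, and Cpeb1 and Lin28a lie below 7.08, the lowest mean with a deposited adjusted p. With no filter and with a mean of at least 100, 7 members had an unadjusted DESeq2 p below 0.05. Members above 0 numbered 22 to 26. Centring on genes with a mean of at least 1000, leaving out Lin28b and the filters on the unadjusted count were chosen after seeing the data. Leaving out single brains was not run. No paired analysis was possible because the table has no values per library, so the authors' litter term could be neither removed nor redone.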
